A study of Mus musculus with 4 samples.

Results

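The genes described here are 10 members of the Notch pathway, namely the receptors Notch1, Notch2, Notch3 and Notch4, the ligands Jag1, Jag2 and Dll1, and the targets Hes1, Nrarp and Dtx1. They were taken by name, as every probe set annotated to 1 of these genes and to no other, which gave 20 of the 45037 probe sets tested. RNA came from LSK cells of mouse bone marrow, which lack lineage markers and carry c-Kit and Sca1 and hold the blood stem cells and multipotent progenitors. The cells were sorted into a Hi group (2 arrays) and a Lo group (2 arrays) by the amount of c-Myc-eGFP, a c-Myc protein fused to a fluorescent protein. Both groups came from femurs of mice labelled WT B6/129, and both carried the fusion, since it was the basis of the sort; the age of the mice was not given. Nothing in the labels says whether the arrays of a group came from separate mice or sorts, so p-values measure only the spread between these arrays.

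Notch receptors are cut when a ligand on a neighbouring cell binds them, and their intracellular domain then enters the nucleus and joins the DNA-binding protein RBPJ to turn on target genes. In blood formation the pathway is known for committing progenitors to the T lineage. By its title the study is about a ubiquitin ligase with 1 substrate in stem cell differentiation; Fbxw7, the ligase subunit that marks c-Myc for degradation, is also known to mark Notch intracellular domains. The comparison therefore bears on which transcripts of this pathway differ between progenitors rich and poor in c-Myc protein.

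Nrarp was the member highest in Hi relative to Lo, 1.66-fold and 2.12-fold on its 2 probe sets, and the receptor Notch3 was 1.83-fold and 1.95-fold lower in Hi on its own 2. Notch1 was 1.51-fold lower in Hi on its brighter probe set, with a log2 difference of 0.02 on the other. For Notch2, Notch4, the 3 ligands, Hes1 and Dtx1 every 95% interval of the difference included 0. None of the 20 passed the test over all probe sets: limma called 0 higher and 0 lower at an adjusted p under 0.05, as it did for 0% of all 45037 probe sets in each direction. At an unadjusted p under 0.05, 2 of the 20 (10%) were higher in Hi, against 9.05% of all probe sets, and 3 of the 20 (15%) were lower, against 8.91%. The 2 Hi arrays were above both of the Lo arrays in 4 of the 20, against 29.3% of all probe sets, and below both in 4 of the 20, against 22% of all. As a family, the 20 were thus near the background in these counts, with a median difference of -0.03 on the log2 scale, against 0.04 over all probe sets.

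**Figure D1:**
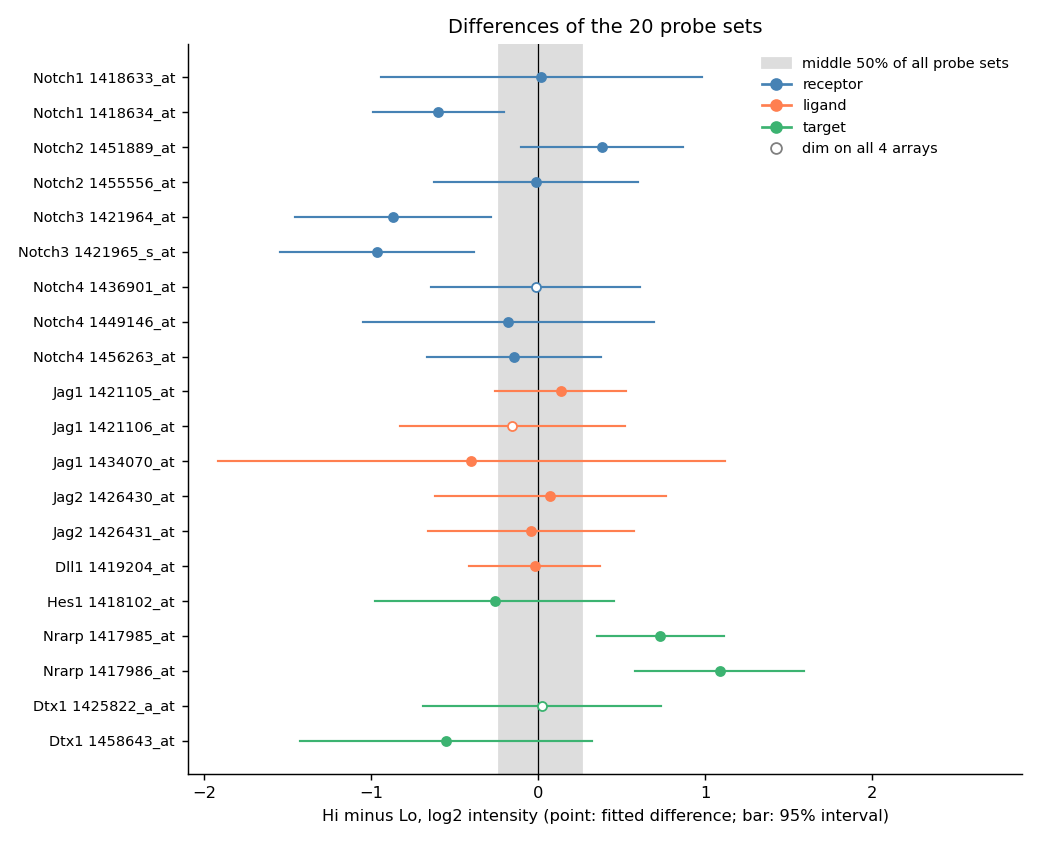
Fitted difference of Hi minus Lo (log2 intensity) of each of the 20 probe sets, with its 95% interval from limma; colours mark receptors, ligands and targets, open points the probe sets that were dim on all 4 arrays, and the grey band the middle 50% of all probe sets. Both Nrarp intervals lie above 0, and those of both Notch3 probe sets and of Notch1 1418634_at lie below 0.

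Because Nrarp stood opposite to Notch1 and Notch3, the 250 bases before the RefSeq start of these 3 genes are shown (assembly GRCm38.p6, 5′ to 3′ along each gene's strand); capitals mark the motif CACGTG, the E-box bound by Myc with its partner Max, which reads the same on both strands.
Nrarp, chr2:25180508-25180757, plus strand: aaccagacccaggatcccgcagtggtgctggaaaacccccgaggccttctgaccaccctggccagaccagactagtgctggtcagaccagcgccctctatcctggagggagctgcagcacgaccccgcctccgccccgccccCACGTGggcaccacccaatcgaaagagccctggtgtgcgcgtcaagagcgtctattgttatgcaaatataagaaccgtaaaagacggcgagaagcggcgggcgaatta
Notch1, chr2:26503823-26504072, minus strand: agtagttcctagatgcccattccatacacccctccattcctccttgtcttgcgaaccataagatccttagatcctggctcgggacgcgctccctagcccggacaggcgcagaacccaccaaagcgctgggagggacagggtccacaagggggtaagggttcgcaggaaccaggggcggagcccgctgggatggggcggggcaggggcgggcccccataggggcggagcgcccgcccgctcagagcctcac
Notch3, chr17:32166891-32167140, minus strand: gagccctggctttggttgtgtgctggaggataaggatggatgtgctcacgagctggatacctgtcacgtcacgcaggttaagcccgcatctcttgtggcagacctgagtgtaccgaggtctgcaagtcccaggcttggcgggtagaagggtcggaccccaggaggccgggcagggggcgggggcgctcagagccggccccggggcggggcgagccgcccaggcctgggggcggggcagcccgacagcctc
The Nrarp window held this E-box once, at 108 to 103 bases before the start, and the Notch1 and Notch3 windows held none. Among all 32851 windows of this length in the table, which belong to 27025 genes, 6.02% held it. Of the 10 genes, 9 had an entry, Dll1 with 2; Hes1 had none. The E-box was found in 1 of these 10 windows, and the RBPJ core TGGGAA, searched on both strands, in 0 of 10, against 21.6% of all windows. These matches describe letters in a short window and not binding, and the search was chosen after the expression values were seen.

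Levels are log2 intensities, and since probes differ in how brightly they bind, each probe set is compared only with itself. In a mixed cell population a lower level can come from fewer cells with the transcript or from less of it per cell, and these arrays cannot tell the 2 apart. A probe set was called dim where it did not exceed a limit set on each array by 27 bacterial control probe sets whose transcripts had not been added (their highest value), which was 4.74 to 4.87 on the 4 arrays. Of the 20 probe sets, 3 were dim on all 4 arrays, 1 each of Notch4, Jag1 and Dtx1, and 17 were not.

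**Figure D2:**
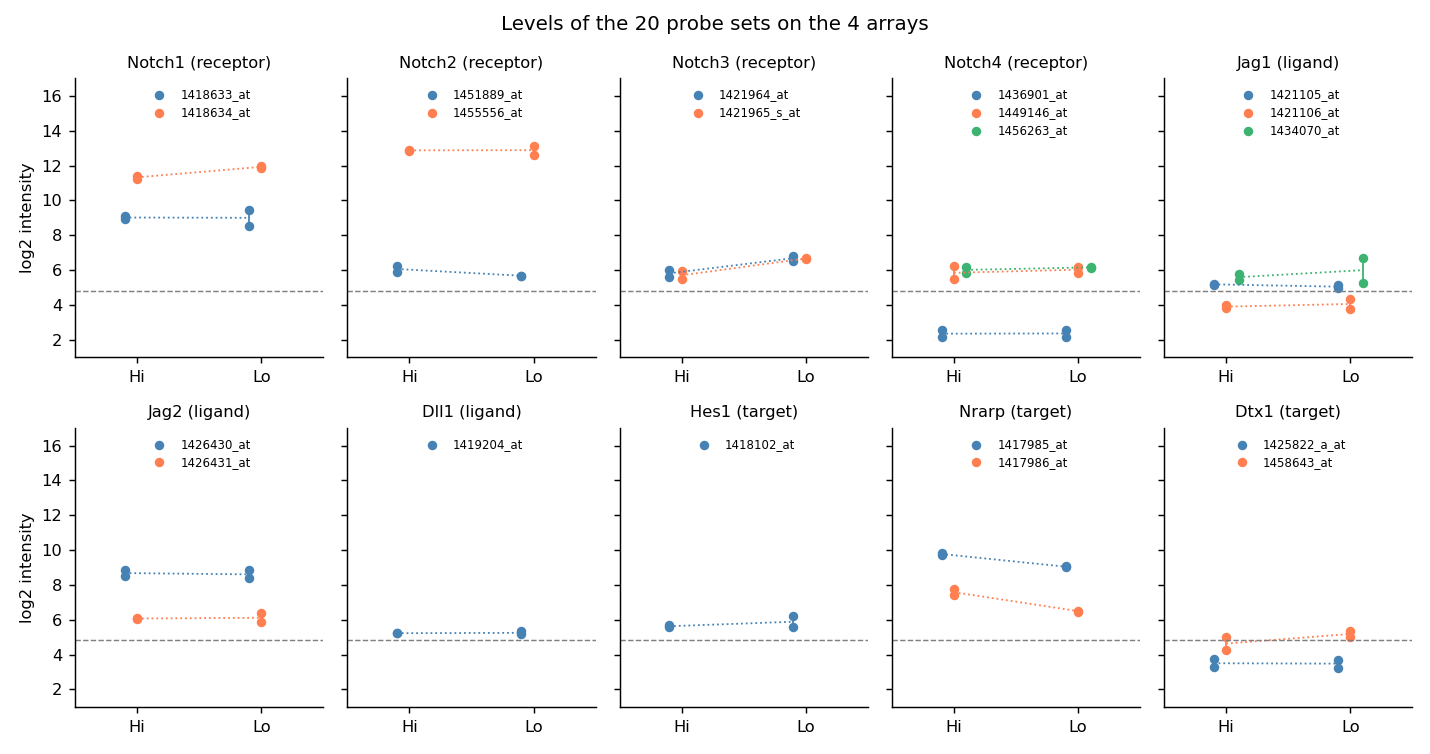
Log2 intensity of every probe set of the 10 genes on each array, Hi left and Lo right, with a dotted line between the group means and a dashed line at the mean dim limit of the 4 arrays. The Nrarp points lie higher in Hi and the Notch3 points lower in Hi on both of their probe sets, while the bright Notch2 probe set is level.

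Among the receptors, Notch3, which in T cells is itself a target of Notch1, gave the same direction on both probe sets. On 1421964_at it had 5.63 and 6.00 in Hi, against 6.83 and 6.54 in Lo. The difference of -0.87 ± 0.21 (SE, 95% interval -1.45 to -0.29) had a limma adjusted p of 0.172. On 1421965_s_at, whose suffix marks probes that can also match related transcripts, it had 5.47 and 5.93 in Hi, against 6.71 and 6.63 in Lo. Here the difference was -0.96 ± 0.21 (SE, 95% interval -1.55 to -0.38), with an adjusted p of 0.151. The groups did not overlap on either probe set, with gaps of 0.54 and 0.70 between the nearest Hi and Lo arrays, and all 8 values lay above the dim limit. Both differences missed the threshold over all probe sets, and 2992 probe sets had a smaller unadjusted p than the second.

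Notch1, the receptor that T cell commitment depends on, had 11.26 and 11.40 in Hi on 1418634_at, against 11.96 and 11.89 in Lo. Both Hi arrays were lower than both Lo arrays, and the difference was -0.60 ± 0.14 (SE, 95% interval -0.99 to -0.21, limma adjusted p = 0.167). Its other probe set, 1418633_at, had 8.95 and 9.09 in Hi, against 9.45 and 8.55 in Lo. There the Lo arrays lay on either side of the Hi arrays, and the difference was 0.02 ± 0.35 (SE). The interval of that difference, -0.94 to 0.98, contains the value of the brighter probe set. With the mean of both, the gene had a difference of -0.29 ± 0.21 (SE, adjusted p = 0.479).

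Notch2, a receptor known for its role in marginal zone B cells, was bright on 1455556_at, with 12.85 and 12.89 in Hi, against 13.13 and 12.63 in Lo. The difference of -0.01 ± 0.22 (SE) had a 95% interval of -0.62 to 0.60. On its dimmer probe set 1451889_at it had 5.90 and 6.23 in Hi, against 5.68 and 5.67 in Lo. These groups did not overlap, but the difference of 0.38 ± 0.17 (SE, adjusted p = 0.361) has an interval from -0.10 to 0.87. Notch4, best known from endothelial cells, had 6.20 and 5.82 in Hi, against 6.13 and 6.18 in Lo on 1456263_at. The difference was -0.15 ± 0.19 (SE), and on 1449146_at it was -0.18 ± 0.31 with overlapping groups. The remaining probe set, 1436901_at, was dim on all 4 arrays at 2.16 to 2.55 and gives no level.

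For the ligands, every 95% interval of the difference included 0. Jag2 had 8.87 and 8.49 in Hi, against 8.84 and 8.38 in Lo on 1426430_at, a difference of 0.07 ± 0.25 (SE, 95% interval -0.62 to 0.77). On 1426431_at it had 6.11 and 6.04 in Hi, against 5.86 and 6.37 in Lo. The groups overlapped on both. Jag1, which stromal and endothelial cells of the marrow present to blood progenitors, was near the dim limit on 1421105_at, with 5.22 and 5.15 in Hi, against 5.12 and 4.98 in Lo. Those arrays did not overlap, by a gap of 0.03, and the difference was 0.13 ± 0.14 (SE). On 1434070_at Jag1 had 5.41 and 5.77 in Hi, against 6.72 and 5.27 in Lo, so that Lo replicate 1 alone stood high. The difference of -0.40 ± 0.55 (SE) was 0.32 without that array. Its probe set 1421106_at was dim on all 4 arrays. Dll1 had 5.24 and 5.22 in Hi, against 5.17 and 5.33 in Lo, just above the dim limit, a difference of -0.02 ± 0.14 (SE, 95% interval -0.41 to 0.37).

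Of the targets, Nrarp showed the largest difference of the 20. Its protein is known to bind the Notch intracellular domain with RBPJ and to limit Notch signalling, so it is both a product and a brake of the pathway. On 1417986_at it had 7.40 and 7.76 in Hi, against 6.53 and 6.47 in Lo. Each Hi array stood above both Lo arrays, by a gap of at least 0.88, and the difference was 1.09 ± 0.18 (SE, 95% interval 0.58 to 1.59, limma adjusted p = 0.116). On the brighter probe set 1417985_at it had 9.73 and 9.83 in Hi, against 9.09 and 9.01 in Lo. Again the groups did not overlap, and the difference was 0.73 ± 0.14 (SE, 95% interval 0.35 to 1.11, adjusted p = 0.129). By unadjusted p these probe sets stood at ranks 1575 and 2078 of 45037, within the first 3.5% and 4.61%. With the mean of both probe sets in a fit over 18193 genes, Nrarp had 0.91 ± 0.15 (SE) and an adjusted p of 0.0602, and Notch3 had -0.92 ± 0.19 with 0.0888. In that fit 1.39% of all genes were called higher and 1.52% lower, and 0 of the 10 members.

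Hes1, a transcriptional repressor and a common readout of Notch activity, had 5.70 and 5.56 in Hi, against 6.20 and 5.58 in Lo, and the groups overlapped. The difference was -0.26 ± 0.26 (SE, 95% interval -0.98 to 0.46, limma adjusted p = 0.65). This interval overlapped that of Nrarp 1417985_at (0.35 to 1.11) but not that of Nrarp 1417986_at (0.58 to 1.59). The difference between the 2 genes was not tested. Dtx1, a ubiquitin ligase gene of the Deltex family that Notch turns on in lymphocytes, had 4.26 and 5.01 in Hi, against 5.03 and 5.35 in Lo on 1458643_at. The groups were apart by a gap of only 0.02, with 1 Hi array dim, and the difference was -0.55 ± 0.31 (SE, adjusted p = 0.445). Its other probe set was dim on all 4 arrays.

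**Figure D3:**
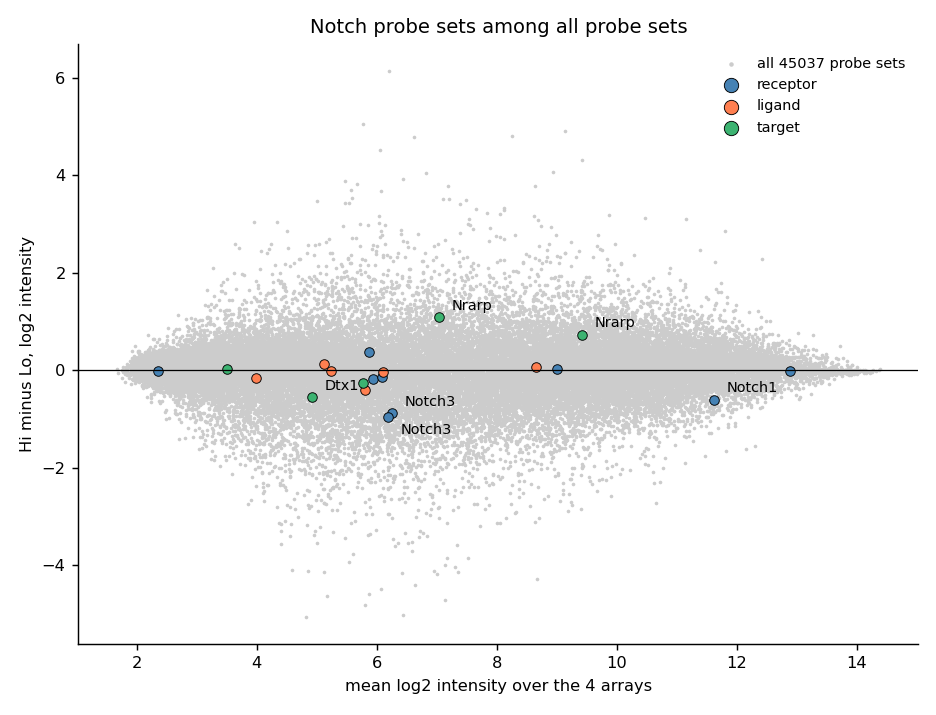
Difference of Hi minus Lo against the mean log2 intensity over the 4 arrays, for all 45037 probe sets in grey and for the 20 Notch probe sets in colour by role; names mark members whose difference is over 0.5 in size. The Nrarp and Notch3 points lie toward the edge of the grey cloud at their intensity but within it.

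Values of other cell types, and 1 of 2 measures of RNA quality, moved with the groups. Of 8 endothelial markers, 5 (Kdr, Emcn, Vwf, Tie1 and Stab2) were lower on both Hi arrays, and 1, Cdh5, was higher. For this and the lists below, the shares over all genes by their brightest probe set were 25.4% lower on both Hi arrays and 30% higher. The summed linear intensity of the 8 endothelial markers was 4178 and 4154 in Hi, against 5850 and 6217 in Lo. Cdh5, which marks endothelial junctions, was dim on all 4 arrays. Emcn, Vwf and Tie1 are also known to be transcribed by blood stem cells. The summed erythroid markers stood at 2575 and 3032 in Hi, against 934 and 799 in Lo. Of these 5, 3 were higher on both Hi arrays and 0 lower, with Alas2 dim on all 4 arrays. The granulocyte and monocyte markers summed to 62642 and 53908 in Hi, against 39127 and 31341 in Lo. Of these 8, 5 were higher on both Hi arrays and 0 lower. Such sums weigh the brightest probe sets most. The sums of T cell markers (465 to 645 in Hi, 545 to 578 in Lo) and of stromal markers (1448 to 1599 in Hi, 1266 to 1876 in Lo) overlapped, but single markers in them did not. Of 5 T cell markers, Cd8a (5.62 and 5.44 in Hi, against 6.88 and 6.55 in Lo) and Cd3d (5.07 and 5.29 in Hi, against 6.23 and 5.66 in Lo) were lower on both Hi arrays. Another, Cd4, was higher, and the groups overlapped for Cd3e (difference -0.10) and Cd3g (-0.15). Of 7 stromal and bone markers, 2 were lower on both Hi arrays and 1 was higher. The lower ones were Col1a2, with 6.60 and 7.44 in Hi, against 8.23 and 8.69 in Lo, and Col3a1, dim on all 4 arrays. The higher one was Sparc, with 8.66 and 7.67 in Hi, against 7.50 and 7.35 in Lo. B cell markers summed to 2854 and 2921 in Hi, against 3496 and 3560 in Lo, with Pax5 dim on all 4 arrays. Of these 5, 2 were lower on both Hi arrays and 1, Cd79a, was higher. Megakaryocyte markers summed to 6326 and 5327 in Hi, against 3933 and 4640 in Lo. Of these 6, 4 were higher on both Hi arrays, among them Gp6, dim on all 4 arrays, and 1, Gp9, was lower. Of the genes of the sorted population, Kit, Cd34 and Flt3 stood between 11.39 and 12.92 on all 4 arrays. The Sca1 gene was on the list but had no probe set annotated to it alone. Slamf1, whose product CD150 marks blood stem cells, had 8.79 and 7.42 in Hi, against 9.99 and 9.57 in Lo. Cd48, whose product marks progenitors more than stem cells, had 12.92 and 12.89 in Hi, against 12.37 and 11.96 in Lo. Neither pair of groups overlapped, and the differences were 3.19-fold lower in Hi for Slamf1 (limma adjusted p = 0.235) and 1.67-fold higher for Cd48 (0.19). S100a8 and S100a9, genes of granulocytes, whose markers the lineage gate should deplete, stood between 12.52 and 13.65 on all 4. Between the 3′ and 5′ Gapdh controls the log2 difference was 0.63 and 0.66 in Hi, against 0.74 and 0.78 in Lo, while for the Actb controls it was 0.60 and 0.55 in Hi, against 0.84 and 0.57 in Lo, where the groups overlapped. The part of these shifts in the Notch values was not tested.

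The wider pathway was followed through 8 lists of other genes, each gene by its brightest probe set. The lists were chosen with earlier results of these data known. The shares below therefore describe the listed genes and cannot show a shift of the pathway. Of 86 listed genes, 79 had a probe set of their own, and in the fit over all 45037 probe sets limma called 0 higher and 0 lower. With no adjustment and p under 0.05, 2 of the 79 were higher in Hi (2.53%, against 9.25% of all genes) and 15 lower (19%, against 11% of all genes). The 2 Hi arrays were above both of the Lo arrays in 12 (15.2%, against 30% of all genes) and below in 31 (39.2%, against 25.4%). The median difference of the 79 was -0.04, against 0.03 over all genes. In the fit of 18193 genes by their brightest probe set, 0 of the 79 were called higher (1.04% of all genes) and 4 lower (1.18% of all genes). In the fit on gene means, 1 was called higher (1.39% of all genes) and the same 4 lower (1.52%), namely Bcl11b, Gata3, Neurl3 and Tle6.

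**Figure D4:**
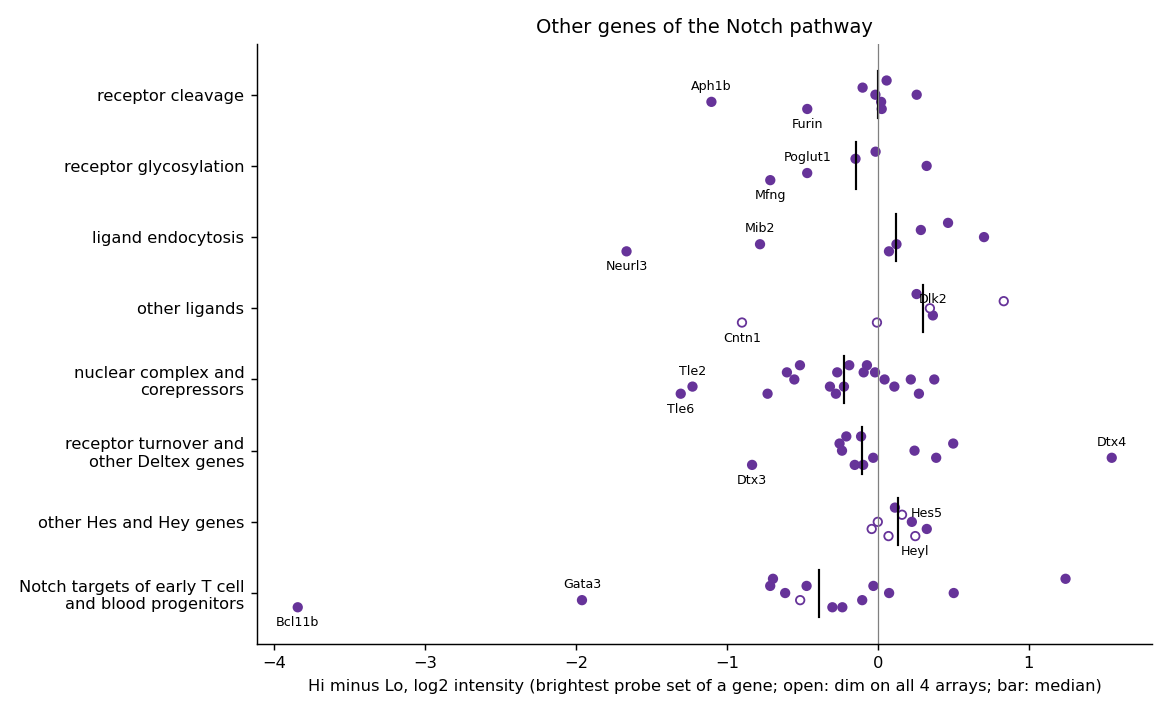
Difference of Hi minus Lo (log2 intensity) for each measured gene of the 8 lists, by its brightest probe set; open points were dim on all 4 arrays, black bars are list medians, and the 2 genes with the smallest p of each list are named. Most points lie within 1 unit of 0, and Bcl11b, Gata3 and Neurl3 lie farthest to the left.

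The counts that follow, for each list, are of genes with an unadjusted limma p under 0.05, and lists were not tested. Each is to be read beside the shares over all genes by their brightest probe set, 9.25% higher and 11% lower. For receptor cleavage, 0 of 8 were higher and 2 lower. Furin, the protease that cuts receptors on their way to the surface, had a difference of -0.47 ± 0.13 (SE). Aph1b, a subunit of the gamma-secretase that frees the intracellular domain, had -1.10 ± 0.35 (gene mean -0.82). Adam17, a sheddase, had 0.26 ± 0.21 (gene mean 0.46). Among 5 genes of receptor glycosylation, which tunes the choice of ligand, 0 were higher and 2 lower. The Fringe glycosyltransferase gene Mfng had 10.63 and 10.81 in Hi, against 11.25 and 11.61 in Lo (-0.71 ± 0.19, limma adjusted p = 0.195). Poglut1, which adds glucose to the receptors, had -0.47 ± 0.14, and the related Fringe gene Rfng 0.32 ± 0.15 (gene mean 0.11). In the fit on gene means 0 of these 5 were called.

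Of 7 genes of ligand endocytosis, a step that signal-sending cells need, 0 were higher and 2 lower. Neurl3, of the neuralized family, had 6.36 and 6.72 in Hi, against 8.17 and 8.24 in Lo. Its difference of -1.66 ± 0.18 (SE) had a limma adjusted p of 0.0921, and of 0.0359 in the fit on gene means and 0.0463 in that on brightest probe sets. The ubiquitin ligase gene Mib2 had -0.78 ± 0.17. Neurl1a had 0.70 ± 0.30 with 1 of 4 arrays dim, but 0.27 as the mean of its 6 probe sets. Of 6 other ligand genes, 4 were dim on all 4 arrays, 0 were higher and 1 lower. That was Cntn1, among the dim ones (-0.90 ± 0.13, SE), with a gene mean of -0.29. Dlk2, with 1 of 4 arrays dim, had 0.36 ± 0.16 (gene mean 0.19), and Dll3, dim on all 4 arrays, 0.35 ± 0.15.

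In the nuclear complex with its corepressors, 0 of 19 were higher and 3 lower. Rbpj itself had 10.99 and 10.94 in Hi, against 11.15 and 11.31 in Lo (-0.27 ± 0.14, limma adjusted p = 0.415), or 0.15 when its 3 probe sets were averaged. The coactivator gene Maml1 had -0.55 ± 0.19 (SE), with a gene mean of -0.24. The Groucho family genes Tle6 and Tle2 had -1.31 ± 0.13 and -1.23 ± 0.37; Tle6 had an adjusted p of 0.0846, and of 0.0325 in the fit on gene means and 0.0413 in that on brightest probe sets.

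Of 12 genes of receptor turnover and the other Deltex genes, 1 was higher and 1 lower. Dtx4 had 10.26 and 9.61 in Hi, against 8.07 and 8.69 in Lo (1.55 ± 0.34, limma adjusted p = 0.155), and it was the gene called higher in the fit on gene means (1.73, adjusted p = 0.039) but was not called by its brightest probe set (adjusted p = 0.103). Its relative Dtx3 stood the other way, with 7.45 and 7.34 in Hi, against 8.10 and 8.35 in Lo (-0.83 ± 0.16), and Dtx3l had -0.24 ± 0.13 (gene mean -0.07). Fbxw7 had 11.09 and 10.72 in Hi, against 10.99 and 10.05 in Lo, so its groups overlapped (0.39 ± 0.38). Of 8 other Hes and Hey genes, 5 were dim on all 4 arrays and none reached that p. Hes5 had 0.32 ± 0.25 (gene mean 0.57), while Heyl (0.25 ± 0.16) was dim on all 4 arrays and Hey1 (0.23 ± 0.21) on both Lo arrays.

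The last list held genes known as Notch targets in early T cells and blood progenitors, with 14 measured, 1 of them higher and 4 lower. Bcl11b, which fixes T cell identity, had 5.30 and 5.89 in Hi, against 9.50 and 9.37 in Lo. The difference was -3.84 ± 0.25 (SE, limma adjusted p = 0.0839), or -2.58 as the mean of its 4 probe sets. The T lineage factor gene Gata3 had 7.50 and 6.96 in Hi, against 9.23 and 9.15 in Lo (-1.96 ± 0.23, adjusted p = 0.0947). Both were called lower in the fit on gene means, with adjusted p-values of 0.0313 and 0.0371, and in that on brightest probe sets, with 0.0385 and 0.0486. Nfkb2, of the NF-kappaB family, had -0.61 ± 0.18 (gene mean -0.49). Myc, also a Notch target in T cell progenitors, had 12.41 on both Hi arrays, against 11.70 and 10.64 in Lo (1.24 ± 0.40, limma adjusted p = 0.241). The cells were sorted by the amount of c-Myc-eGFP, so Myc is not independent of the groups. Of the 14 genes, 6 had overlapping groups. Any gene can only be higher or lower in Hi, so a direction shared with a member links no genes, and no such link was tested.

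**Figure D5:**
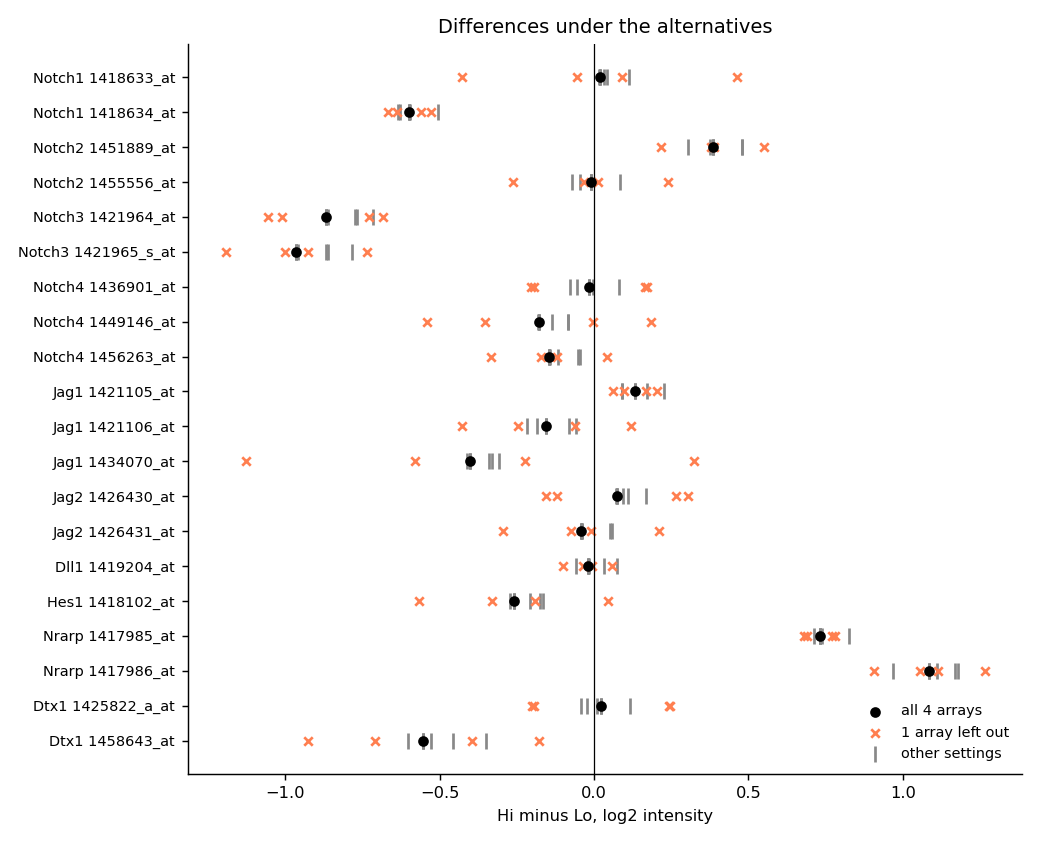
Difference of Hi minus Lo (log2 intensity) of each of the 20 probe sets with all 4 arrays (black), with 1 array left out (orange crosses) and under the other settings (grey bars). The crosses of Nrarp stay above 0, and those of Notch3 and of Notch1 1418634_at below 0, while those of Jag1 1434070_at and Hes1 fall on both sides. On these probe sets of Nrarp, Notch3 and Notch1 the groups do not overlap, so leaving out 1 array cannot change the sign.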

How the data were processed

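Transcripts were measured on 1-colour Affymetrix mouse arrays, 2 from Hi and 2 from Lo cells, from RNA amplified with a NuGEN Ovation kit per the labels' protocols. The deposited values are linear intensities, made with RMA (version not given in the sources used here) per the submitters' processing notes. Intensities were transformed to log2 with no offset. After 64 control probe sets were left out, 45037 were fitted with limma (version 3.58.1, R version 4.3.3; group only, two-sided, constant prior variance) with Benjamini-Hochberg adjustment across the whole table. Residual degrees of freedom were 2, plus 1.976 from the prior. The number of arrays limits precision, and an exact permutation test of 2 arrays against 2 could not reach 0.05, so none was run. The platform annotation gave 34945 probe sets 1 symbol; 34754 were matched by Entrez identifier to the RefSeq table (GRCm38.p6), which changed 0 symbols. Named were all members and, of each pathway list, the 3 genes with the smallest p, plus Rbpj, Fbxw7 and Myc; marker genes beyond 3 a list were named after their values were seen. Members and lists were chosen with earlier results of these data known. The fit was tested on simulated data. Promoter sequences are from RefSeq.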

Additional observations from a re-analysis of the deposited data

How the results depend on the processing

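No member was called in either direction (0 higher and 0 lower at an adjusted p under 0.05; 2 and 3 at an unadjusted p under 0.05 as reported), also under quantile normalization, arrays shifted to the same median, cyclic loess, an offset of 16 before log2, a trended prior, no moderation, a dim filter, 1 array left out, and fits over genes by the mean of their probe sets or the brightest. With a replicate block the counts were also 0 and 0. Across probe sets, the deviations of same-numbered arrays from their group means had a correlation of 0.07 (2 pairs of arrays). The numbers were therefore not taken to pair the arrays. Of 220 values of single probe sets under these alternatives, 195 kept their sign, and 8 probe sets kept their sign throughout. These were both of Nrarp (0.68 to 0.83 and 0.91 to 1.26), both of Notch3 (-1.06 to -0.68 and -1.19 to -0.74), Notch1 1418634_at (-0.67 to -0.50), Notch2 1451889_at, Jag1 1421105_at and Dtx1 1458643_at. They are the probe sets whose groups did not overlap with all 4 arrays, and leaving out 1 array cannot change the sign of such a difference. A trended prior, no moderation and a replicate block cannot change any difference. The count of kept signs is therefore in part fixed in advance. Adjusted p ran from 0.0835 to 0.479 for Nrarp 1417985_at and from 0.163 to 0.549 for Notch3 1421964_at. Of 8 genes with several probe sets, 7 had a gene mean with the sign of the brightest, at 0.91 (adjusted p = 0.0602) for Nrarp, -0.92 (0.0888) for Notch3 and -0.29 (0.479) for Notch1. Leaving out 1 array, 5 to 10 probe sets had both groups apart with Hi above and 5 to 9 with Hi below, against 4 and 4 with all arrays, since a lone array overlaps less easily. Differences that changed sign ran, with 1 array left out, from -0.43 to 0.46 for Notch1 1418633_at, -0.26 to 0.24 for Notch2 1455556_at, -0.20 to 0.17 for Notch4 1436901_at, -0.54 to 0.18 for 1449146_at and -0.33 to 0.043 for 1456263_at. For Jag1 they ran from -0.43 to 0.12 (1421106_at) and -1.13 to 0.32 (1434070_at), for Jag2 from -0.16 to 0.30 (1426430_at) and -0.29 to 0.21 (1426431_at), for Dll1 from -0.10 to 0.059, for Hes1 from -0.57 to 0.046 and for Dtx1 1425822_a_at from -0.20 to 0.25. With arrays shifted to the same median, Notch2 1455556_at stood at 0.083, Notch4 1436901_at at 0.080, Jag2 1426431_at at 0.052 and Dll1 at 0.074. With quantile normalization Jag2 1426431_at stood at 0.058, Dll1 at 0.032 and Dtx1 1425822_a_at at -0.024, which was -0.042 with cyclic loess; averaged over its probe sets Notch2 stood at 0.186, against -0.012 for its brightest. The median of the 79 pathway genes ran from -0.14 without Hi replicate 2 to 0.05 with arrays shifted to the same median; it was -0.10 without dim genes, an alternative added after seeing the data. The causes were not tested. Intensities near the dim limit bound what can be read for Jag1, Dll1 and Dtx1.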
